A study of Mus musculus with 6 samples.

Results

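Sensors of foreign or misplaced RNA and DNA were examined in kidney RNA of newborn mice, in 3 samples labelled USP10 KO (Usp10 knockout) and 3 labelled USP10 WT (wild type), all labelled male and taken 6 hours after birth. Total RNA of each sample was labelled with Cy3 and read on 1 single-colour expression array. Usp10 encodes a deubiquitinating enzyme, and the allele, the cells in which it was removed and the strain are not given in the sources used here. Nor is it given whether each sample came from a separate neonate, so p-values measure only the spread between these samples, which may be in part technical. The 10 genes were taken from a list of sensors and their immediate partners, matched through the RefSeq accession that each probe targets: Ddx58, Ifih1, Dhx58, Mavs, Eif2ak2, Zbp1, Adar, Tlr3, Sting1 (Tmem173 in older tables) and Cgas (Mb21d1). They were read by 16 of the 39429 probes, and all 10 were among the 21207 genes tested.

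A cell recognises viral nucleic acid, or its own nucleic acid in the wrong place, through receptors in the cytosol and in endosomes. The RIG-I-like receptors bind double-stranded RNA and signal through MAVS on mitochondria, cGAS binds DNA and signals through STING at the endoplasmic reticulum, and TLR3 binds double-stranded RNA in endosomes. These routes lead to type I interferon, and interferon in turn raises the transcripts of many of the sensors themselves. In kidney, tubular cells as well as resident immune cells are known to carry such receptors.

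Each value below is a log2 signal relative to the 75th percentile of its array. Such levels can be compared between arrays for 1 probe, but not between probes. On each array 64.4% to 73.9% of the spots were well above background. The top 1% of spots held 39.1% of the signal on USP10 KO replicate 2 and 29.4% to 31.9% on the other arrays. Arrays scanned together are called a slide here. USP10 KO replicates 1 and 2 and USP10 WT replicates 2 and 3 made up slide 1. USP10 KO replicate 3 and USP10 WT replicate 1 made up slide 2. Over the genes tested, USP10 KO replicate 1 correlated most with USP10 WT replicate 2 (0.993), and USP10 KO replicate 3 with USP10 WT replicate 1 (0.989). The correlation of USP10 KO replicates 1 and 2 was 0.982. Usp10 itself, read by 1 probe, stood at 3.52 ± 0.14 in the group labelled USP10 KO and at 3.03 ± 0.09 in the group labelled USP10 WT (SD, n = 3 each), a log2 difference of 0.49 ± 0.16 (SE; limma adjusted p = 0.416). This direction goes against the labels, although a probe outside the deleted part would check nothing. Every direction below therefore rests on the groups as labelled. The Y-linked genes Uty, Ddx3y and Eif2s3y were not well above background on USP10 WT replicate 2, and Xist was well above background on USP10 WT replicates 1 and 2, although both are labelled male. Values against USP10 WT replicate 3 alone, the array of that group whose sex-linked transcripts fit its label, are therefore given beside the results. That comparison is not balanced for slide, since USP10 KO replicate 3 is on slide 2 and USP10 WT replicate 3 on slide 1. All 11 markers of kidney epithelium on the list used here, such as Umod, Nphs1 and Slc12a1, were well above background on all 6 arrays.

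All 10 sensor genes had a lower mean in the group labelled USP10 KO on the probe that stood for the gene. None passed the test over all genes. Zbp1 and Tlr3 turned positive with normexp background correction and 75th percentile scaling. Zbp1 was also positive within slide 2 (0.39), and a dimmer probe of Cgas was positive (0.25). The 2 largest differences were those of Dhx58 and Ifih1, both over 2 on the fold scale. The other 8 lay between -0.59 and -0.27 on the log2 scale. Dhx58 kept neither this rank nor this size with normexp and 75th percentile scaling. There it was -0.46, behind Ifih1 (-1.22), Ddx58 (-0.58) and Adar (-0.47). The test was limma with Benjamini-Hochberg adjustment over 21207 genes and a threshold of 0.05. By it 0 of the 10 genes were lower and 0 higher, where 0.0613% of all genes tested were lower and 0.0189% higher. Once slide entered as a block, 1 of the 10, Dhx58, passed as lower and 0 as higher, against 0.17% and 0.123% of all genes. An unadjusted p under 0.05 was reached by 6 of the 10 as lower and 0 as higher, against 4.23% and 6.15% of all genes. The 3 USP10 KO arrays lay below all 3 USP10 WT arrays for 6 of the 10 and above them for 0, against 8.1% and 10.1% of all genes. A negative difference was found in 10 of 10, against 46.7% of all genes, and in both slides in 9 of 10, against 38.3%. The 10 genes were chosen with earlier results of these data known. Their counts beside the shares of all genes are therefore a description and no test of the set. The median log2 difference was -0.55 over the 10 genes and 0.028 over all genes tested. Within slide 1 the median of the 10 was -0.63, within slide 2 it was -0.46, and against USP10 WT replicate 3 alone it was -0.40. In whole kidney RNA, fewer cells that hold a transcript and less transcript per cell cannot be told apart.

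**Figure D1:**
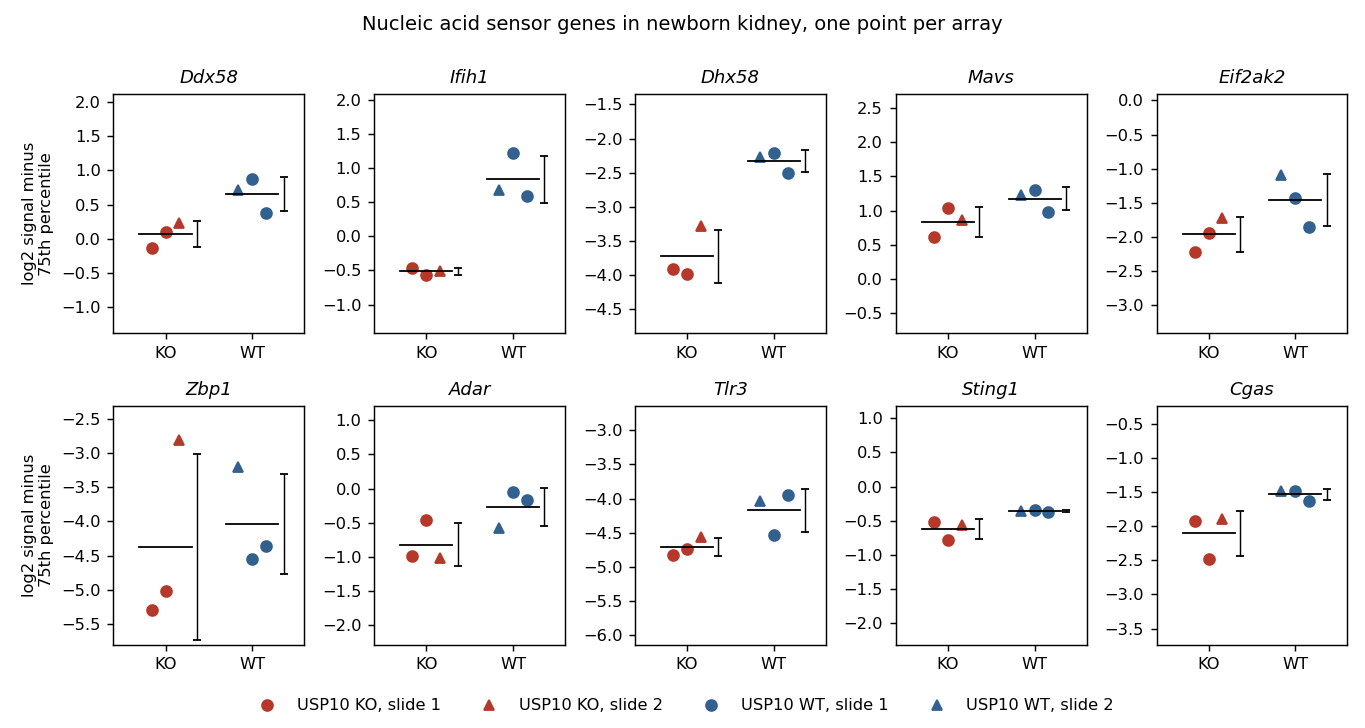
Log2 signal minus the array's 75th percentile for the 10 sensor genes, 1 panel a gene, with a point for each array (circles slide 1, triangles slide 2), a line at the group mean and a bar of 1 SD either side; every panel spans the same 3.5 log2 units. USP10 KO and USP10 WT arrays do not overlap for Ddx58, Ifih1, Dhx58, Tlr3, Sting1 and Cgas, and for Zbp1 both slide 2 arrays stand above the slide 1 arrays.

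The cytosolic RNA receptors came first in size. Ifih1 encodes MDA5, a helicase that binds long double-stranded RNA. Its signal was -0.46, -0.57 and -0.51 on USP10 KO replicates 1, 2 and 3, against 0.68, 1.23 and 0.59 on USP10 WT replicates 1, 2 and 3. The 3 USP10 KO arrays lay within a narrow span, well below the lowest USP10 WT array. The log2 difference was -1.35 ± 0.21 (SE, n = 3 each), a 2.54-fold lower signal (limma adjusted p = 0.0870, and 0.0620 blocked by slide). It was -1.42 within slide 1, -1.19 within slide 2 and -1.11 against USP10 WT replicate 3 alone (limma adjusted p = 0.517).

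Dhx58 encodes LGP2, a receptor of the same family that lacks the signalling domains of the other two and modulates them. It stood at -3.91, -3.99 and -3.28 on USP10 KO replicates 1 to 3, against -2.27, -2.21 and -2.51 on USP10 WT replicates 1 to 3. The groups were again apart, with USP10 KO replicate 3 the nearest to USP10 WT. The log2 difference was -1.40 ± 0.23 (SE), a 2.63-fold lower signal (limma adjusted p = 0.105). Dhx58 passed with slide as a block (limma adjusted p = 0.0498) and without USP10 KO replicate 3 (0.0486, log2 difference -1.62), in both cases just under the threshold. Against USP10 WT replicate 3 alone the difference was -1.21 (limma adjusted p = 0.517). With normexp background correction, which adds an offset of 50 to every signal, it was -0.46 after 75th percentile scaling and -0.68 after quantile normalisation.

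Ddx58 encodes RIG-I, which recognises short RNA with a triphosphate end. On its brighter probe it stood at -0.14, 0.099 and 0.23 on USP10 KO replicates 1 to 3, against 0.72, 0.87 and 0.38 on USP10 WT replicates 1 to 3. USP10 KO replicate 3 and USP10 WT replicate 3 were only a little apart. The log2 difference was -0.59 ± 0.20 (SE; limma adjusted p = 0.423, and 0.227 blocked by slide), with -0.64 within slide 1, -0.49 within slide 2 and -0.31 against USP10 WT replicate 3 alone. A second probe for the same transcript gave a larger separation, with -2.94, -2.60 and -2.50 on USP10 KO replicates 1 to 3 and -1.54, -1.72 and -1.84 on USP10 WT replicates 1 to 3. Its log2 difference was -0.98 ± 0.19 (SE), which did not pass with every probe tested on its own (limma adjusted p = 0.177). The dimmer probe of Ifih1 was well above background on 0 of 3 USP10 KO arrays and on 3 of 3 USP10 WT arrays, which puts its signal at least 1.59-fold lower in USP10 KO (limma adjusted p = 0.359 over all probes). It passed the filter only through USP10 WT, which favours that direction, and so adds no support. For that bound, each USP10 KO array was given the dimmest signal that still counted as well above background there, or its own signal where that was higher.

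**Figure D2:**
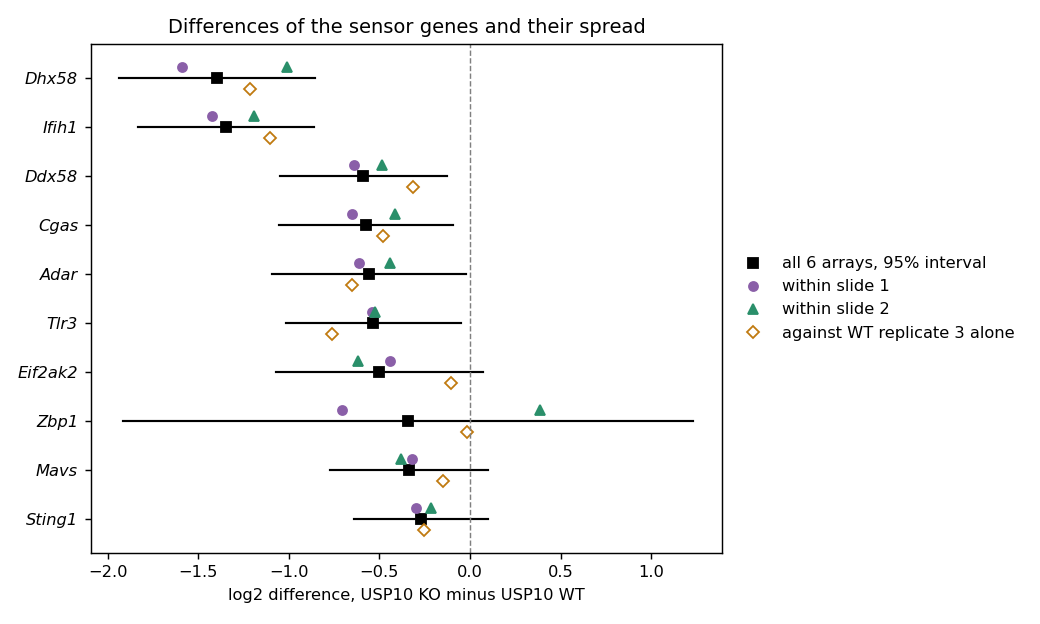
Log2 difference (USP10 KO minus USP10 WT, horizontal axis) of each sensor gene, with its 95% interval from limma (squares and lines), and the same difference within slide 1, within slide 2 and against USP10 WT replicate 3 alone. The squares of Dhx58 (-1.40) and Ifih1 (-1.35) stand apart from those of the other 8 genes, and Zbp1 has the widest interval and opposite signs in the 2 slides.

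The proximal promoters of 3 of these genes hold the core of the interferon-stimulated response element, the sequence through which interferon-activated factors bind DNA, and are shown with that of the adaptor gene Mavs, which holds none. The windows run from 250 bases before the transcription start to 50 after it, on the strand of the gene (RefSeq, build GRCm38.p6). Capitals mark a match, on either strand, to GAAA, any 2 bases and GAAA again. Ddx58 lies at chr4:40239776-40240075 (minus strand), Ifih1 at chr2:62646206-62646505 (minus strand), Eif2ak2 at chr17:78882523-78882822 (minus strand) and Mavs at chr2:131233813-131234112 (plus strand).
Ddx58: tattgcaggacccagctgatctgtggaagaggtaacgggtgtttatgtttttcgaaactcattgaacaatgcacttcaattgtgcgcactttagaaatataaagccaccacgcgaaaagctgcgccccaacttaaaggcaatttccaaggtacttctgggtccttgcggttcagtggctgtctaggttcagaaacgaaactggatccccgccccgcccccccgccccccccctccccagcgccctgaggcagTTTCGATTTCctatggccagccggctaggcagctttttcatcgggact
Ifih1: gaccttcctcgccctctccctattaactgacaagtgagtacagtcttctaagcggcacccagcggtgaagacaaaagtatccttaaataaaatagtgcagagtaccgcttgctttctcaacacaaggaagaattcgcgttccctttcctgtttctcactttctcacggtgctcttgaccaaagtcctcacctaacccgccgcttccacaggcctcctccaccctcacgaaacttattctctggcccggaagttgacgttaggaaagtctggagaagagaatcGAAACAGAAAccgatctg
Eif2ak2: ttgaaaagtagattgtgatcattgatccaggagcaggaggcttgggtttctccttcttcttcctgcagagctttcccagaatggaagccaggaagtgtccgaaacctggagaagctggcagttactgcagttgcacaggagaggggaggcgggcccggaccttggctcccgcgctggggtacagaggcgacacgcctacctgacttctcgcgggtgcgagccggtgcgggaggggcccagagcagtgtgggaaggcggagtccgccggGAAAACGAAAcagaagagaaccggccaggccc
Mavs: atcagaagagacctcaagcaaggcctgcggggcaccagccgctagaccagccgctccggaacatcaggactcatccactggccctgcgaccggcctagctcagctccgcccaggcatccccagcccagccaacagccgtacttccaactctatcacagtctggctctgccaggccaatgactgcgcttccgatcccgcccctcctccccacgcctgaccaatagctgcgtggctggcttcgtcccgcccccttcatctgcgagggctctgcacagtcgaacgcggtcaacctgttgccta
The match begins 3 bases into the transcript for Ddx58, 33 for Ifih1 and 19 for Eif2ak2, counting the start site as base 1. Promoter windows were searched for 7 of the 10 genes, and Dhx58, Zbp1 and Sting1 were left out. Of the 9 windows in all, 3 held the core, against 3.44% of 32851 windows of mouse genes. The other windows, of Mavs, Adar (3 windows, 2 of which overlap), Tlr3 and Cgas, did not hold these letters. A gamma-activated site, searched as TTCNNNGAA on both strands, was found in the window of Eif2ak2 and in 1 of those of Adar, against 8.3% of all windows, and it overlapped no response element core. A match is a description of the letters only. The arrays measured no binding at these sites.

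Mavs, the mitochondrial adaptor on which the RIG-I-like receptors converge, stood at 0.60, 1.04 and 0.85 on USP10 KO replicates 1 to 3, against 1.23, 1.30 and 0.98 on USP10 WT replicates 1 to 3. The groups overlapped, since USP10 KO replicate 2 lay above USP10 WT replicate 3. Mavs differed by -0.34 ± 0.19 (log2, SE; limma adjusted p = 0.533), with -0.22 without USP10 KO replicate 1 and -0.15 against USP10 WT replicate 3 alone. Its 95% interval ran from -0.77 to 0.098.

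Receptors and adaptor could be set against each other within each array, in a measure that scaling a whole array by a factor cannot move. Ifih1 minus Mavs was -1.07, -1.61 and -1.37 on USP10 KO replicates 1 to 3, against -0.56, -0.073 and -0.39 on USP10 WT replicates 1 to 3, a difference of -1.01 between the group means. Dhx58 minus Mavs was -4.52, -5.03 and -4.13 on USP10 KO replicates 1 to 3, against -3.50, -3.51 and -3.49 on USP10 WT replicates 1 to 3, a difference of -1.06. In both cases the groups were apart, and the 3 USP10 WT arrays agreed closely for Dhx58. Ddx58 minus Mavs was -0.74, -0.94 and -0.62 on USP10 KO replicates 1 to 3 and -0.52, -0.43 and -0.61 on USP10 WT replicates 1 to 3, a difference of -0.25 with the groups nearly touching. The two-sided exact permutation p was 0.1 for each of these 3 comparisons, and 0.1 after Benjamini-Hochberg adjustment, which is the smallest value that 3 arrays against 3 can give. Such a ratio compares 2 probes and does not show that Mavs was constant.

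**Figure D3:**
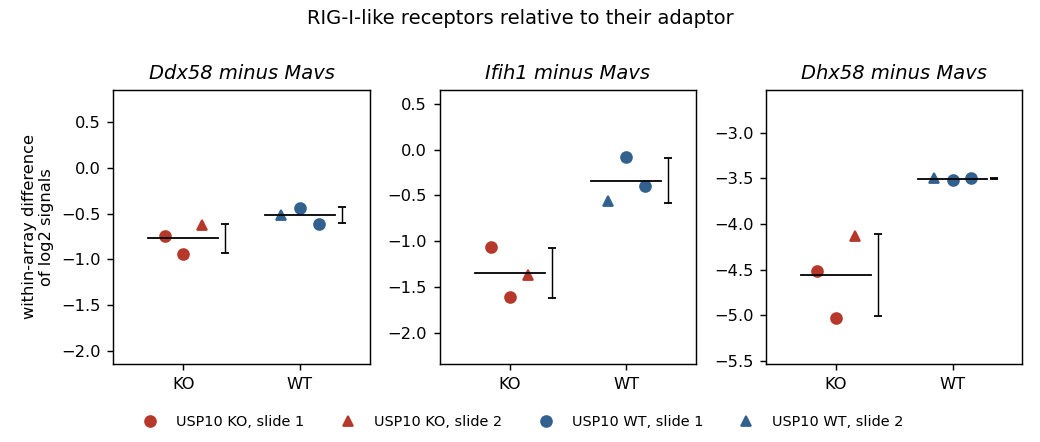
Log2 signal of Ddx58, Ifih1 and Dhx58 minus that of Mavs on the same array (vertical axis, log2 units), with a point for each array, a line at the group mean and a bar of 1 SD either side. Dhx58 minus Mavs lies between -3.51 and -3.49 on the 3 USP10 WT arrays and between -5.03 and -4.13 on the 3 USP10 KO arrays.

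Next were the effector and editing proteins that bind double-stranded or Z-form nucleic acid. Eif2ak2 encodes PKR, a kinase that double-stranded RNA activates and that halts translation by phosphorylating eIF2 alpha. It stood at -2.23, -1.94 and -1.72 on USP10 KO replicates 1 to 3, against -1.10, -1.43 and -1.86 on USP10 WT replicates 1 to 3. The groups overlapped, because USP10 WT replicate 3 lay below USP10 KO replicate 3. Eif2ak2 differed by -0.50 ± 0.24 (log2, SE; limma adjusted p = 0.508). The difference was -0.32 without USP10 WT replicate 1, -0.10 against USP10 WT replicate 3 alone and -0.26 with normexp and 75th percentile scaling.

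Adar encodes the ADAR1 enzyme, which converts adenosine to inosine in double-stranded RNA and keeps self RNA from being sensed. Its brighter probe stood at -0.99, -0.46 and -1.02 on USP10 KO replicates 1 to 3, against -0.58, -0.049 and -0.17 on USP10 WT replicates 1 to 3. These groups overlapped, by USP10 KO replicate 2 and USP10 WT replicate 1. Adar differed by -0.56 ± 0.23 (log2, SE; limma adjusted p = 0.473), with -0.65 against USP10 WT replicate 3 alone. On the second probe the groups were apart and the difference was similar, -0.51 ± 0.18 (SE; limma adjusted p = 0.448 over all probes). Both probes target the same RefSeq transcript, and the interferon-inducible form of ADAR1 was not analysed on its own here.

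Zbp1, a sensor of Z-form nucleic acid that starts necroptosis, had the largest spread of the 10. It stood at -5.29, -5.02 and -2.81 on USP10 KO replicates 1 to 3, against -3.20, -4.55 and -4.36 on USP10 WT replicates 1 to 3. USP10 KO replicate 3 and USP10 WT replicate 1, the 2 arrays of slide 2, were the highest of the 6. Zbp1 differed by -0.34 ± 0.67 (log2, SE; limma adjusted p = 0.857), but -0.70 within slide 1 and 0.39 within slide 2, so that its direction differed between the slides. It also turned to 0.12 without USP10 KO replicate 1 and to 0.078 without USP10 WT replicate 1, and was -1.12 without USP10 KO replicate 3. Against USP10 WT replicate 3 alone it was -0.019. No direction is given for Zbp1. Its second probe, which targets another RefSeq transcript and was well above background on 1 of 3 USP10 KO arrays and 2 of 3 USP10 WT arrays, was likewise highest on the slide 2 arrays, at -3.87 on USP10 KO replicate 3 and -4.55 on USP10 WT replicate 1, against -7.59 to -5.81 on the slide 1 arrays.

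In endosomes, TLR3 signals through the adaptor TRIF. Tlr3 stood at -4.83, -4.73 and -4.56 on USP10 KO replicates 1 to 3, against -4.04, -4.54 and -3.95 on USP10 WT replicates 1 to 3. The groups did not overlap, though USP10 KO replicate 3 and USP10 WT replicate 2 were almost level. Tlr3 differed by -0.53 ± 0.21 (log2, SE; limma adjusted p = 0.459), with -0.54 within slide 1, -0.52 within slide 2 and -0.76 against USP10 WT replicate 3 alone. With normexp background correction it was 0.16 after 75th percentile scaling, where the median of all genes was 0.14, and -0.15 after quantile normalisation. The sign of this dim probe turned only under the first of these combinations.

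For cytosolic DNA, cGAS makes the messenger cGAMP and STING relays it to the kinase TBK1. Cgas stood at -1.93, -2.49 and -1.89 on USP10 KO replicates 1 to 3, against -1.48, -1.49 and -1.62 on USP10 WT replicates 1 to 3, on its brightest probe. The groups were apart, with USP10 KO replicate 2 the lowest. Cgas differed by -0.57 ± 0.21 (log2, SE; limma adjusted p = 0.437), with -0.48 against USP10 WT replicate 3 alone and -0.38 without USP10 KO replicate 2. It was -0.28 with normexp and 75th percentile scaling, where the median of all genes was 0.14. Of its 2 other probes, the one that was well above background on all 6 arrays had a difference of the opposite sign, 0.25 ± 0.26 (SE), and the other was well above background on none. With the mean of the 2 probes that passed, the difference of Cgas was -0.16.

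Sting1 stood at -0.51, -0.79 and -0.57 on USP10 KO replicates 1 to 3, against -0.35, -0.34 and -0.37 on USP10 WT replicates 1 to 3. The USP10 WT arrays agreed closely, and all USP10 KO arrays lay below them. The log2 difference was the smallest of the 10, -0.27 ± 0.16 (SE; limma adjusted p = 0.548), with -0.30 within slide 1, -0.22 within slide 2 and -0.25 against USP10 WT replicate 3 alone. Its 95% interval ran from -0.64 to 0.099.

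The 10 genes did not share a single profile over the arrays. With each profile centred on its own mean, the most alike of the 45 pairs were Ddx58 and Eif2ak2, with a root mean square difference of 0.163 log2 units over the 6 arrays, and Ddx58 and Mavs with 0.165. The least alike were Ifih1 and Zbp1, with 1.08. Among all other named genes tested, those nearest to Ddx58 by this measure were Trim21, Ccr2, Ctss, Stat2 and Otub2, with root mean square differences between 0.0707 and 0.0965. Trim21 encodes a cytosolic antibody receptor, Stat2 a transcription factor of the interferon response, Ccr2 a chemokine receptor of monocytes and Ctss a lysosomal protease. Their log2 differences lay between -0.71 and -0.46, and none passed (limma adjusted p between 0.338 and 0.476). Nearest to Ifih1, the sensor gene with the smallest p, were Gm4951, Trim34a, Bst2, Parp14 and Gvin1, with root mean square differences between 0.0864 and 0.200. Bst2 encodes tetherin, which holds budding virus at the cell surface. Its log2 difference was -1.41 ± 0.17 (SE; limma adjusted p = 0.0513, and 0.0368 blocked by slide). The other 4 differed by between -1.61 and -1.29, with limma adjusted p between 0.0521 and 0.0997. Of them Gvin1 (0.0370) and Trim34a (0.0498) passed when limma was blocked by slide, where 0.17% of all genes passed as lower. All these neighbours were picked for profiles like those of Ddx58 or Ifih1 on the same arrays. Their similar differences and p follow from that choice and add no support.

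Of 78 other genes of nucleic acid sensing, 75 had a probe by accession and 68 were tested. These lists too were chosen with earlier results of these data known, so their counts and medians are a description only. Limma called 1 lower and 0 higher, against 0.0613% and 0.0189% of all genes. With slide as a block it called 2 lower, against 0.17% of all genes. Their median log2 difference was -0.17, with 46 negative and 22 positive, against 0.028 over all genes. The median over each list was -1.02 for the 5 downstream outputs tested, -0.49 for Zbp1 partners and -0.26 for endosomal receptors. It was -0.093 for adaptors, kinases and interferon regulatory factors, -0.013 for regulators of RNA sensors and -0.060 for DNA sensing and nucleases.

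**Figure D4:**
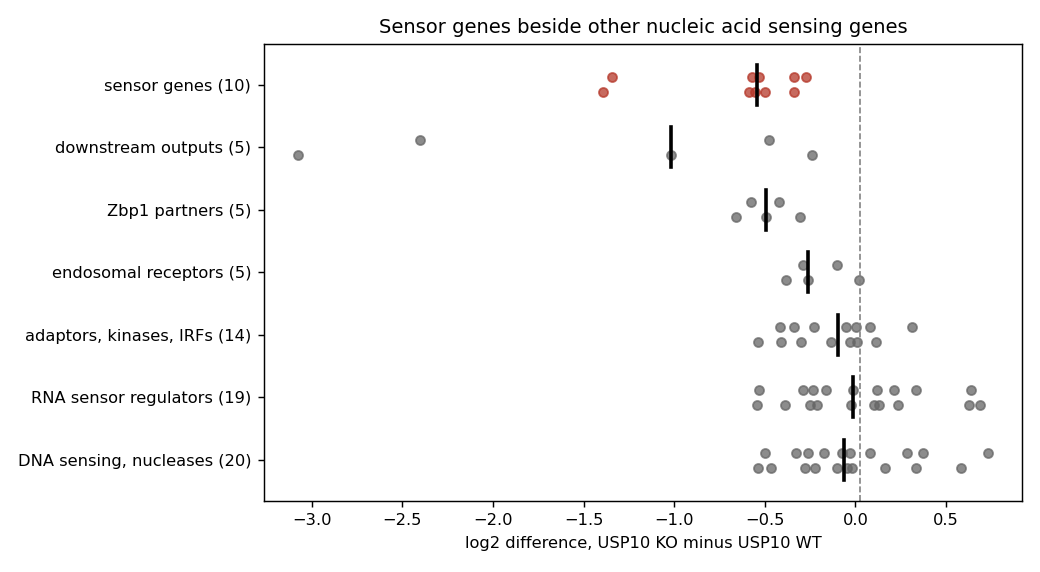
Log2 difference (USP10 KO minus USP10 WT) of each gene tested, 1 point a gene, for the 10 sensor genes and for 6 lists of other nucleic acid sensing genes, with the number tested in brackets, a vertical bar at each list's median and a dashed line at the median of all genes (0.028). The sensor genes have a median of -0.55, and the 14 adaptors, kinases and interferon regulatory factors one of -0.093.

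Among the downstream outputs, Ifit1, an antiviral protein that binds foreign RNA caps, was the gene that passed. It stood at -3.83, -2.86 and -3.47 on USP10 KO replicates 1 to 3, against -0.65, 0.21 and -0.49 on USP10 WT replicates 1 to 3, an 8.43-fold lower signal (log2 difference -3.07 ± 0.32, SE; limma adjusted p = 0.0444). Without any 1 of the arrays other than USP10 KO replicate 3 no gene of these lists passed, and with normexp and quantile normalisation none did. Isg15, a ubiquitin-like modifier, differed by -2.40 ± 0.30 (SE; limma adjusted p = 0.0521, and 0.0368 blocked by slide). Rsad2, the antiviral enzyme viperin, differed by -1.02 ± 0.20 (SE; limma adjusted p = 0.190). Of the 5 outputs tested, Cxcl10 and Ccl5 differed least, by -0.24 ± 0.19 and -0.48 ± 0.54 (SE; limma adjusted p = 0.635 and 0.742). Within slide 2 Cxcl10 was -0.076 and Ccl5 was 0.29. The interferon genes Ifnb1 and Ifna4, and Il6 and Tnf, were well above background on 0 of the 6 arrays.

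All 5 listed genes whose proteins work with ZBP1 in cell death had negative differences, and none passed. The adaptor gene Fadd differed by -0.66 ± 0.20, Casp8 by -0.57 ± 0.21 and the necroptosis effector gene Mlkl by -0.42 ± 0.17 (SE, limma adjusted p = 0.402, 0.442 and 0.474), with 4 of the 5 lower at an unadjusted p under 0.05, beside 4.23% of all genes. For these 3 of the 5 the USP10 KO arrays all lay below the USP10 WT arrays, beside 8.1% of all genes. In slide 2 the difference of Mlkl was -0.065, and in slide 1 it was -0.60.

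Of the other endosomal receptor genes 4 of 5 tested were on the negative side. Tlr13, a mouse receptor of bacterial ribosomal RNA, differed by -0.29 ± 0.17, Tlr7, a receptor of single-stranded RNA, by -0.38 ± 0.29, and Unc93b1, which carries these receptors to endosomes, by -0.26 ± 0.16 (SE). Their limma adjusted p lay between 0.545 and 0.624. Against USP10 WT replicate 3 alone Tlr13 was -0.31, Tlr7 -0.16 and Unc93b1 -0.41. Tlr8 was well above background on 0 of the 6 arrays. In the list of adaptors the smallest p were those of Traf3 (0.31 ± 0.18), Myd88 (-0.54 ± 0.31) and Azi2 (-0.23 ± 0.15, SE), with limma adjusted p between 0.541 and 0.575. Irf7, the interferon regulatory factor that interferon itself raises, did not pass the filter on dim probes. It was well above background on 0 of 3 USP10 KO arrays and on 1 of 3 USP10 WT arrays.

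Regulators of the RNA sensors went both ways. Trim25, a ubiquitin ligase of the RIG-I pathway, differed by -0.54 ± 0.17 and Prkra, the protein activator of PKR, by -0.53 ± 0.21, while Eif2ak3, the eIF2 alpha kinase PERK of the endoplasmic reticulum, differed by 0.63 ± 0.22 (SE). None of these 3 passed (limma adjusted p between 0.414 and 0.471). Over the 19 regulators tested, the USP10 KO arrays lay below all USP10 WT arrays for 2 and above them for 3, beside 8.1% and 10.1% of all genes. In the DNA list Samhd1, which breaks down nucleotides, differed by -0.47 ± 0.18, Casp1, the inflammasome protease, by -0.54 ± 0.25, and Dnase1, a secreted nuclease, by 0.73 ± 0.26 (SE; limma adjusted p between 0.437 and 0.490).

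Markers of other cell types that kidney samples can hold are given beside the sensor genes, and limma called 0 of them in either direction. Of 18 macrophage and dendritic cell markers 15 were tested. Their differences were negative for 9 and positive for 6. An unadjusted p under 0.05 was reached by 5 as lower and 0 as higher, beside the 4.23% and 6.15% of all genes. The smallest p were those of the fractalkine receptor gene Cx3cr1 at -1.58 ± 0.21, the Fc receptor gene Fcgr1 at -1.28 ± 0.32 and the complement gene C1qc at -0.87 ± 0.24 (SE; limma adjusted p = 0.0604, 0.330 and 0.353). Cx3cr1 passed with slide as a block (limma adjusted p = 0.0349). The list's median was -0.14. Its summed linear signal was taken in units of the array's 75th percentile. It ranged from 32.4 to 117 on USP10 KO arrays and from 31.6 to 81.7 on USP10 WT arrays. Both low ends were slide 2 arrays, and the slide 1 arrays lay between 79.8 and 117. Siglech made up 63.8% of this signal, and Itgax was well above background on no array. Endothelial markers were negative for 5 and positive for 3 of 8, with a median of -0.27, and 3 were lower and 0 higher at that unadjusted p. Their summed signal ranged from 20.1 to 23.6 on USP10 KO arrays and from 22.6 to 24.5 on USP10 WT arrays. Of 9 T, NK and B cell markers 4 were tested, with a median of -0.066, a summed signal of 1.31 to 1.84 on USP10 KO arrays and 1.19 to 1.79 on USP10 WT arrays, and Cd3g, Ncr1, Klrb1c and Ms4a1 well above background on none. Neutrophil markers had a median of -0.075 and erythroid markers one of 0.062, with 0 of either list at an unadjusted p under 0.05. Urothelial markers were positive for 6 of 6, with a median of 0.59, and 4 were higher and 0 lower at that unadjusted p. Among them Krt20, a keratin of the urothelial surface, had a difference of 1.25 ± 0.26 (SE; limma adjusted p = 0.219). The summed urothelial signal was 6.69 to 9.73 on USP10 KO arrays and 4.36 to 5.57 on USP10 WT arrays, without overlap. The part of these cell types in the values of the sensor genes was not tested.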

How the data were processed

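Linear spot intensity values were deposited as scanner output, background-subtracted by the authors' software and not scaled between arrays. Agilent Feature Extraction made them, in version 11.0.1.1 as stated per the file headers, whereas the submitters' processing notes name version 9.1. RNA was extracted with TRIzol and labelled with Cy3, per the labels' protocols. The array design refers to build mm9, per the file headers.

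Outlier spots were left out and signals taken to log2. From each array was subtracted the 75th percentile of its 43020 non-control spots, and repeat spots of 1 probe were then averaged. Accessions named 69.1% of probes through a RefSeq table of GRCm38.p6, used for names and promoters only. Probes had to be measured on all 6 arrays and well above background on every array of USP10 KO or of USP10 WT, and the brightest stood for its gene. Groups, from the labels, were compared with limma 3.58.1 in R 4.3.3 (two-sided, threshold 0.05), a fit checked on simulated data. Alternatives changed scaling, background correction (normexp on median signals, with an offset of 50), filter, probe choice, variance model, blocks, arrays and threshold. The number of arrays limits precision.

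Members and lists were chosen with earlier results of these data known. Named were all members, genes past the threshold, the 3 smallest p of each list, and the 5 profiles nearest to Ddx58 and to the member with the smallest p. Cxcl10, Ccl5, Ifnb1, Ifna4, Il6, Tnf, Tlr8 and Irf7, and markers absent from every array, were named after their values were seen.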

Additional observations from a re-analysis of the deposited data

How the results depend on the processing

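The number of sensor genes lower in USP10 KO was 0, and it was 1 with slide as a block, 1 without USP10 KO replicate 3 and 1 at an adjusted p threshold of 0.1, so that leaving out 1 array gave 0 to 1. At that threshold the gene was Ifih1 and otherwise Dhx58. No alternative called a sensor gene higher. The median over the sensor genes, -0.55, was -0.31 with normexp and the 75th percentile, -0.37 with normexp and quantile normalisation and -0.40 against USP10 WT replicate 3 alone, and between -0.65 and -0.47 leaving out 1 array. Zbp1 turned positive with normexp and the 75th percentile (0.21), without USP10 KO replicate 1 (0.12), without USP10 WT replicate 1 (0.078) and within slide 2 (0.39), and ranged from -1.12 to 0.12 leaving out 1 array, while Tlr3 did so with normexp and the 75th percentile (0.16). The causes were not tested. Normexp adds an offset of 50 to every signal, and with the 75th percentile it moved the median of all genes to 0.14, against 0.028. The other 8 genes were negative in every alternative run, on the probe that stood for the gene or on the mean of its probes. With every probe on its own, another probe of Cgas that passed the filter had a positive difference, 0.25.

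The 1 call among other nucleic acid sensing genes became 2 with quantile normalisation, normexp and the 75th percentile, an intensity trend, array weights, the slide block or the threshold of 0.1. It became 0 with normexp and quantile normalisation, no filter, the stricter filter, averaged probes, the replicate block or USP10 WT replicate 3 alone, and ranged from 0 to 2 leaving out 1 array. Same-numbered arrays deviated together with correlations over genes of -0.40, 0.48 and -0.60 for replicates 1, 2 and 3. Only replicate 2 had both of its arrays on the same slide, so these values cannot show whether the numbers pair the samples. With the replicate block 0 of 21207 genes passed, against 17, with 1609 at an unadjusted p under 0.05. The counts over all genes were 62 with slide as a block, 45 with an intensity trend, 36 with array weights, 27 with every probe on its own, 27 under normexp with 75th percentile scaling, 8 when the probes of a gene were averaged, 1 with the stricter filter, and 0 with normexp and quantile normalisation or no filter (2245 and 2052 at an unadjusted p under 0.05). They were 81 at a threshold of 0.1 and 30 without USP10 KO replicate 3, and 0 without any other single array or against USP10 WT replicate 3 alone, where between 1072 and 2647 genes had an unadjusted p under 0.05.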
